A study of Rattus norvegicus with 10 samples.

Results

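The genes described here encode the machinery that stores neurotransmitter in synaptic vesicles and releases it at the nerve terminal. They comprise 32 named genes, from synapsins and vesicle membrane proteins to SNAREs, Rab3 proteins and active zone scaffolds, together with the 15 synaptotagmin genes (symbols that start with Syt and a number), 47 of the 14354 genes in the count table. RNA was sequenced from mixed neuron and glia cultures of the hippocampus of Sprague-Dawley rats, taken on embryonic day 18. At 19 days in vitro one group received 1 µM tetrodotoxin (TTX), which blocks voltage-gated sodium channels and so stops action potentials, and the other group received vehicle. Both were collected 24 h later, and each group holds 5 libraries, numbered 1 to 5. No gene was deleted or introduced in either group, and the cultures hold glia as well as neurons, so a transcript can come from either. In such bulk samples, fewer cells of a type and less RNA per cell cannot be told apart. Nothing in the labels says that the 5 libraries of a group came from separate cultures or animals. The p-values therefore refer to the variation among these libraries alone, part or all of which may be technical.

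A vesicle fuses when the vesicle SNARE synaptobrevin pairs with syntaxin and SNAP-25 on the plasma membrane. Munc13 and RIM proteins of the active zone make the docked vesicle ready for fusion, complexin holds and promotes the SNARE complex, and synaptotagmin senses the calcium that enters with an action potential. NSF and its SNAP adaptors take the spent complexes apart, while synapsins tether vesicles in reserve. Silencing hippocampal cultures with TTX is a standard way to induce homeostatic scaling, in which synapses strengthen when activity is low.

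Library totals ran from 52254261 to 77757538 counts with vehicle and from 58785925 to 84921962 with TTX, so counting error is small for all but the rarest of these genes. The treatment was visible in 6 activity-regulated genes, Fos, Npas4, Arc, Egr1, Nr4a1 and Bdnf, all of which fell, by 1.03 (Egr1) to 9.80 (Npas4) on the log2 scale. Expression is given as CPM (a gene's counts relative to the TMM-normalised library size), and a gene is called where edgeR's quasi-likelihood test gives a Benjamini-Hochberg adjusted p under 0.05 over all 13088 genes tested. Of all tested genes 70.5% were called, 35.4% higher and 35% lower with TTX, and 13.8% passed a test against a 1.5-fold change. Of 18 pan-neuronal markers 7 were higher and 7 lower, 3 of them higher and 0 lower past the 1.5-fold test, with a median log2 fold change of 0.06, and their summed level was 7087 to 7394 CPM with vehicle and 7222 to 7444 CPM with TTX. The summed level of 14 astrocyte markers (10 higher, 2 lower) was 11691–13568 CPM with vehicle and 17168–19180 CPM with TTX. Of 12 oligodendrocyte-lineage markers (8 higher, 1 lower) it went from 1315–1631 to 2141–2345 CPM, and of 12 microglial markers (3 higher, 0 lower) from 133–204 to 127–357 CPM. Among neurons, 11 excitatory markers (7 higher, 3 lower) summed to 2374–2603 CPM with vehicle and 3050–3251 CPM with TTX, and 13 inhibitory markers (1 higher, 6 lower) to 1967–2080 and 1452–1536 CPM. No marker in the count table had a library at 0, and the excitatory marker Emx1 was not in that table. A count above 0 does not by itself show that a cell type was present. The part of these marker shifts in the presynaptic results was not tested.

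Of the 47 presynaptic genes 46 were tested, and 19 of these rose, 21 fell and 6 did not pass, against 70.5% called among all genes. The authors' deposited table calls the same 40, 19 higher and 21 lower. The groups did not overlap for 35 of the 46, against 57.3% of all genes. Past the 1.5-fold test stood 12 members, 6 higher and 6 lower, against 5.35% higher and 8.44% lower among all genes. The median log2 fold change of the 46 was -0.03 (0.01 for all genes), whereas the median absolute change was 0.42 (0.27 for all genes), so the members moved in both directions and the set as a whole had no direction. The gene left untested was Syt8, with 0 to 6 counts per library.

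**Figure D1:**
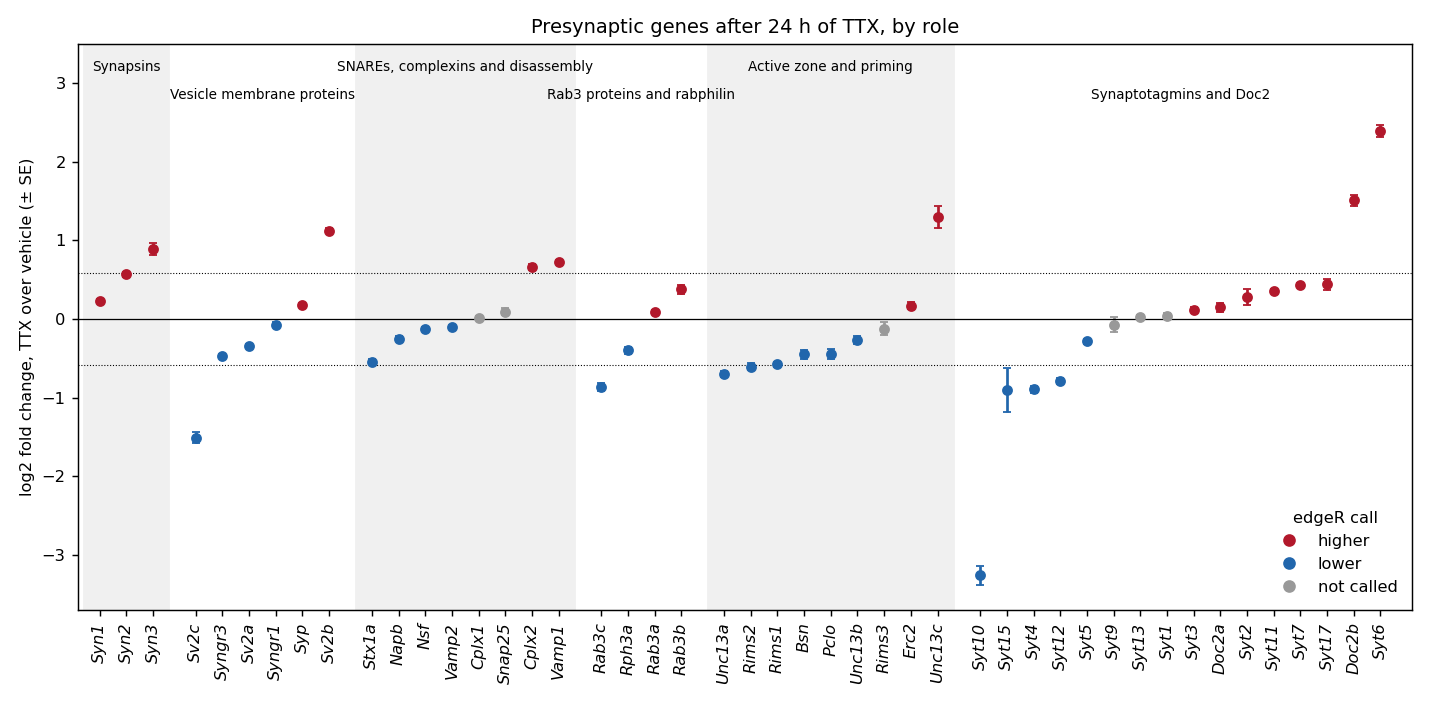
Log2 fold change of each tested presynaptic gene, TTX over vehicle, with bars for the SE of the edgeR fit (n = 5 libraries per group) and dotted lines at a 1.5-fold change. Genes of each role but the synapsins lie on both sides of 0, and over all tested genes 35.4% were called higher and 35% lower.

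All 3 synapsins, phosphoproteins that tether vesicles to each other and to actin, rose, as did 35.4% of all genes. Syn2 had the highest level per transcript length of the 3 (187 FPKM with vehicle, a fragment count per transcript length and library size). It measured 375, 370.2, 344, 373 and 372 CPM in vehicle libraries 1 to 5 and 528, 544, 551, 520.3 and 576 CPM in TTX libraries 1 to 5. Every TTX library lay above every vehicle library, and Syn2 was 1.48-fold higher (log2 fold change 0.57 ± 0.0321 SE, edgeR adjusted p = 9.21e-10). Syn3, a synapsin known for its early expression in development, was rare at 5.23, 5.07, 6.03, 5.12 and 5.09 CPM with vehicle and 9.85, 9.33, 11.04, 9.10 and 9.99 CPM with TTX. Its groups did not overlap either, with a 1.86-fold rise (0.89 ± 0.0756, adjusted p = 7.83e-08). Syn1 rose least, 1.17-fold, from 441 ± 13.5 to 517 ± 14.1 CPM (SD, n = 5).

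Vesicle membrane proteins split by family member. Syp encodes synaptophysin, an abundant vesicle protein that binds synaptobrevin, and had the highest FPKM of all 47 genes. It measured 1593, 1574, 1489.6, 1650.4 and 1656 CPM with vehicle and 1842, 1831, 1745, 1816 and 1790.2 CPM with TTX. All TTX libraries were above all vehicle libraries, but by only 1.13-fold (0.18 ± 0.0286, adjusted p = 5.29e-05). The SV2 proteins are transporter-like glycoproteins that support calcium-dependent release, and their 3 genes went different ways. Sv2b stood at 211, 219, 206, 209 and 233 CPM with vehicle and 476, 478, 458, 462 and 477 CPM with TTX, 2.18-fold higher (1.12 ± 0.0325, adjusted p = 7.28e-13). Sv2c, which is best known from the basal ganglia, stood at 14.9, 13.6, 15.8, 15.2 and 13.6 CPM with vehicle and 5.02, 4.85, 5.83, 5.10 and 4.88 CPM with TTX, 2.85-fold lower (-1.51 ± 0.0705, adjusted p = 1.16e-10). In both genes the groups lay far apart relative to their spread. Sv2a, the main form by FPKM and the target of the drug levetiracetam, fell 1.27-fold, from 614 ± 16.3 to 484 ± 8.28 CPM. The synaptogyrins, relatives of synaptophysin, both fell. Syngr3 was 1.39-fold lower without overlap, whereas the groups of Syngr1 overlapped (log2 fold change -0.07, adjusted p = 0.0363). The Syngr1 call was lost in 7 of the 10 fits that left out one library, with vehicle replicates 3, 4 or 5 or TTX replicates 1 to 4 absent, at adjusted p values from 0.0513 to 0.102.

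SNAREs and their regulators also moved apart. Vamp2 encodes the main synaptobrevin of forebrain terminals and Vamp1 a close relative that is prominent in spinal cord and brainstem. Vamp1 measured 201, 200.2, 204, 201 and 210.1 CPM with vehicle and 331, 329, 323, 349.5 and 348 CPM with TTX, 1.65-fold higher (0.73 ± 0.0278, adjusted p = 1.31e-11). Vamp2 measured 1404, 1374, 1304, 1400.5 and 1429 CPM with vehicle and 1316, 1284, 1274, 1294 and 1269 CPM with TTX. Its groups overlapped because vehicle replicate 3 lay below TTX replicate 1, and it was called 1.07-fold lower (-0.10 ± 0.0250, adjusted p = 0.00211). Cplx2, a complexin, measured 166, 162, 146, 163 and 172 CPM with vehicle and 257, 257, 238, 255 and 272 CPM with TTX, 1.58-fold higher (0.66 ± 0.0429, adjusted p = 4.24e-09). For its relative Cplx1 the log2 fold change was 0.01 (adjusted p = 0.806) with a 95% confidence interval of -0.05 to 0.06, so a change beyond about that size was not seen. Stx1a, the plasma membrane syntaxin, fell 1.46-fold, from 197 ± 5.23 to 135 ± 4.32 CPM without overlap. Snap25 did not pass (log2 fold change 0.09, adjusted p = 0.0649), and its call turned on the setting, with adjusted p values from 0.0185 to 0.199 when one library was left out and calls without vehicle replicate 4, vehicle replicate 5 or TTX replicate 3. Of the disassembly genes among the members, Nsf, the ATPase, and Napb, a SNAP adaptor, were called lower, at log2 fold changes of -0.13 and -0.25. The SNAP adaptors Napa and Napg, outside the members, were called higher without overlap, at log2 fold changes of 0.34 and 0.19.

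Sequences upstream of these genes are shown for the SV2 pair that moved in opposite directions and for the synapsin and synaptobrevin genes whose promoters hold a full cyclic AMP response element, the site of the activity-regulated factor CREB. They are RefSeq promoters of build GRCr8, from 250 bases before to 50 after the gene's start, 5′ to 3′ on the gene's strand. The expression files use another build, rn6, so only the sequence is taken from GRCr8. Capitals mark TGACGTCA (the cyclic AMP response element) and TCGTG or its reverse complement CACGA (a core bound by Npas4).
Syn1, chrX:3725495-3725794 (+ strand): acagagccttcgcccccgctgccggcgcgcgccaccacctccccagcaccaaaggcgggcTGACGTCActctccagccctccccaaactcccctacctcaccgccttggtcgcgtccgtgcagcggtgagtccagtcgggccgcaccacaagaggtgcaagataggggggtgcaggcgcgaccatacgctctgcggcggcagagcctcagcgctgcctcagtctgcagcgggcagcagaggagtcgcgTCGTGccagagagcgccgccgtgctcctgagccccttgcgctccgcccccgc
Vamp1, chr4:159698644-159698943 (+ strand): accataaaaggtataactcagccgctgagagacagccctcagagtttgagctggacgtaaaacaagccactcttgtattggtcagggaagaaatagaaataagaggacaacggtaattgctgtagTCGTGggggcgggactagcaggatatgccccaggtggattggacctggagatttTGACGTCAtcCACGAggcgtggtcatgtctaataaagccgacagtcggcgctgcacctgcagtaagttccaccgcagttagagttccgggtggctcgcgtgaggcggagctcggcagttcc
Sv2b, chr1:138562209-138562508 (- strand): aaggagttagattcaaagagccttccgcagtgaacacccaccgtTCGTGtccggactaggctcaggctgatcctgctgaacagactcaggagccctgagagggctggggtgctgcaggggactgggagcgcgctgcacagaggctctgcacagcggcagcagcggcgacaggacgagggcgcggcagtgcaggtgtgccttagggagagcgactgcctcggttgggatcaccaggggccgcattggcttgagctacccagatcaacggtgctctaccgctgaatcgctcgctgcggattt
Sv2c, chr2:29163119-29163418 (- strand): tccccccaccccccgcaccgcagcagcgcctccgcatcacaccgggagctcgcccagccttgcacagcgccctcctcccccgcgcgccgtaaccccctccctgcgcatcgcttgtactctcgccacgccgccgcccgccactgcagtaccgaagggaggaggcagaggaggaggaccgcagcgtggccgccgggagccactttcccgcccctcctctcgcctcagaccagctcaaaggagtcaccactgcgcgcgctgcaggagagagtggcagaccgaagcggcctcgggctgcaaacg
Promoters of this length were found for 34 of the 47 genes. TGACGTCA occurred in 2 of the 34 (5.88%), Syn1 and Vamp1, against 1.83% of all 33469 promoters in the table, searching both strands. In Vamp1 it lies at bases -71 to -64 from the start and in Syn1 at -190 to -183. TCGTG occurred in 8 of 34 (23.5%, against 17% of all), among them 4 of 14 promoters of genes called higher and 2 of 15 of genes called lower. A single promoter was taken for each member, whereas the 33469 were not limited in that way or to genes measured here. In Vamp1 a CACGA lies 2 bases after the response element, and no match of one motif overlaps the other. These are matches of letters only.

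**Figure D2:**
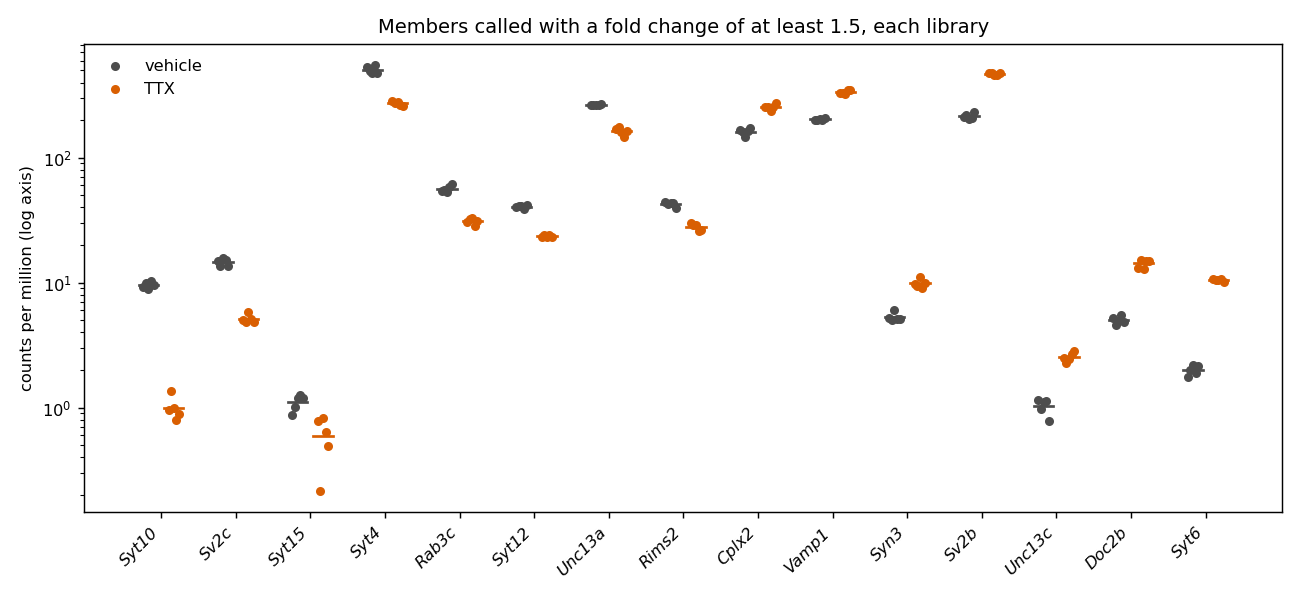
CPM on a log axis in each library for the 15 members called with a log2 fold change of at least 1.5-fold in size, ordered from the largest fall to the largest rise, with short lines at group means (n = 5). The vehicle and TTX points of every gene shown are separate, closest in Syt15, which had 14 to 92 counts per library.

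The Rab3 GTPases ride on vesicles and bind RIM and rabphilin. Rab3a, the main form, measured 579, 582, 554, 598 and 617 CPM with vehicle and 616, 619.7, 612, 625 and 643 CPM with TTX. The groups overlapped slightly and the gene was called 1.06-fold higher (0.09 ± 0.0285, adjusted p = 0.0126). Rab3c measured 54.2, 55.3, 53.0, 58.5 and 62.2 CPM with vehicle and 30.9, 32.1, 32.7, 28.5 and 31.0 CPM with TTX, a 1.83-fold fall without overlap (-0.87 ± 0.0494, adjusted p = 9.83e-10). Rab3b, in contrast, was 0.38 higher on the log2 scale (adjusted p = 3.01e-05). Rph3a, the Rab3 effector rabphilin, was 0.40 lower (log2 fold change -0.40, adjusted p = 9.21e-07).

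Among active zone and priming genes 6 of 9 fell and 2 rose, with a median log2 fold change of -0.45, against 35% lower and 35.4% higher among all genes. The grouping by role was made after values were seen, and nothing particular to the group is read from these counts. Unc13a encodes Munc13-1, the main priming factor of excitatory hippocampal synapses. It measured 266, 264, 264, 264 and 270.2 CPM with vehicle and 169, 177, 161, 147 and 163 CPM with TTX, 1.63-fold lower (-0.70 ± 0.0391, adjusted p = 8.04e-10). The vehicle libraries were nearly alike and the TTX libraries more spread, with replicate 4 lowest. Rims1 and Rims2 encode RIM scaffolds that link vesicles, calcium channels and Munc13. Rims1 measured 132, 129, 124, 127 and 132 CPM with vehicle and 88.3, 86.9, 84.9, 80.8 and 89.8 CPM with TTX, 1.49-fold lower (-0.58 ± 0.0311, adjusted p = 5.24e-10). Rims2 measured 43.9, 42.9, 43.7, 43.3 and 39.8 CPM with vehicle and 30.3, 29.1, 28.7, 25.9 and 26.2 CPM with TTX, 1.52-fold lower (-0.61 ± 0.0480, adjusted p = 3.81e-08). Neither overlapped between groups. Rims3, a short RIM that lacks the Rab3-binding part, did not pass (-0.12, adjusted p = 0.185).

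The size of the Rims2 fall depended on the unit. In the deposited FPKM values Rims2 stood at 12.02, 11.3, 10.9, 12.1 and 10.5 FPKM with vehicle and 6.20, 6.60, 5.74, 6.002 and 5.86 FPKM with TTX, a log2 ratio of the means of -0.90 against -0.61 in counts. A gap over 0.2 between the log2 ratios was found in 31 of 12844 genes (0.241%), and the median gap was 0.01. FPKM is divided by transcript length and counts are not. Which isoforms were present was not analysed here.

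Bsn and Pclo encode bassoon and piccolo, giant scaffolds of the active zone. They fell alike, Bsn 1.37-fold, from 420.1 ± 28.4 to 307 ± 31.1 CPM, and Pclo 1.36-fold, from 91.3 ± 7.54 to 66.9 ± 6.58 CPM. Against the TTX group mean both were lowest in TTX replicate 4 (log2 difference -0.20 for each) and highest in TTX replicate 2 (0.17 and 0.16). Erc2, an ELKS scaffold of the same structure, rose by 0.17 on the log2 scale (adjusted p = 0.00335), and its groups overlapped. Unc13b, or Munc13-2, was lower (-0.27, adjusted p = 0.000241). Unc13c encodes Munc13-3, known mainly from cerebellum, and stood at 1.15, 0.982, 1.11, 1.13 and 0.785 CPM with vehicle and 2.49, 2.26, 2.43, 2.67 and 2.84 CPM with TTX. It rose 2.46-fold without overlap (1.30 ± 0.138, adjusted p = 9.36e-07) on 60 to 76 counts with vehicle and 147 to 212 with TTX.

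Transcript length was compared because several of these genes are very long. By the ratio of count to FPKM, 7 members stand in the longest 10% of tested genes, namely Bsn, Pclo, Rims1, Unc13a, Unc13b, Unc13c and Sv2b, of which 5 fell and 2 rose (median log2 fold change -0.45). Of all 1290 genes in that bin 34.7% fell and 39.8% rose, with a median of 0.02. With each library's trend with length removed, an alternative chosen after seeing the data, Bsn was at -0.57 and Pclo at -0.56, and the counts of members called were 19 higher and 21 lower as before.

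**Figure D3:**
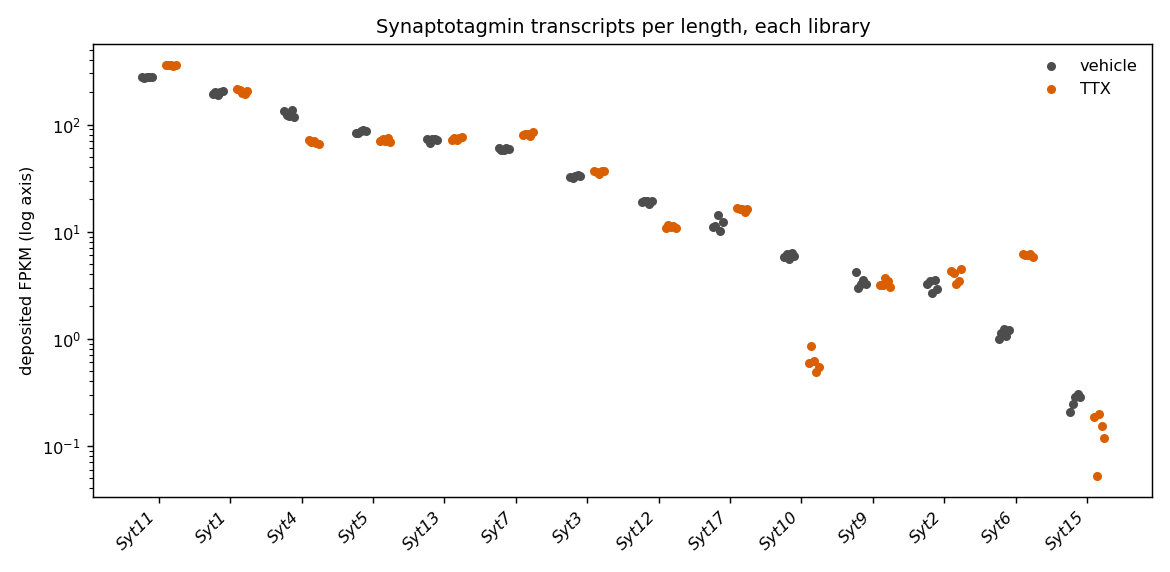
Deposited FPKM on a log axis for each tested synaptotagmin in each of the 5 vehicle and 5 TTX libraries, ordered by vehicle mean. Syt11 and Syt1 are the most abundant in both groups, Syt10 falls from 5.95 to 0.619 FPKM and Syt6 rises from 1.13 to 6.03 FPKM on average.

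Synaptotagmins and the related Doc2 proteins carry paired C2 domains, through which the calcium-sensing members bind calcium and membrane. Of 16 tested 8 rose, 5 fell and 3 did not pass, against 70.5% called among all genes (35.4% higher, 35% lower). This grouping too was made after values were seen, and nothing particular to it is read from these counts. Syt10 had the largest change of all members in either direction. It is known as a target of Npas4, which itself fell here from 92.6 ± 8.61 to 0.0987 ± 0.0676 CPM. Any part of Npas4 in the Syt10 result was not tested. Syt10 measured 9.30, 9.99, 8.96, 10.3 and 9.59 CPM with vehicle and 0.952, 1.37, 1.00, 0.791 and 0.883 CPM with TTX, 9.60-fold lower (-3.26 ± 0.122, adjusted p = 9.99e-12). Every TTX library lay far below every vehicle library, on 47 to 89 counts against 486 to 733. Syt6, a relative of Syt10 in sequence, went the other way. It measured 1.76, 2.00, 2.19, 1.88 and 2.16 CPM with vehicle and 10.7, 10.6, 10.5, 10.7 and 10.2 CPM with TTX, 5.25-fold higher (2.39 ± 0.0768, adjusted p = 2.02e-12), with no overlap.

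Synaptotagmins with weak or no calcium binding also changed. Syt4, a vesicle protein long known to be induced by depolarisation and a regulator of peptide and neurotrophin release, measured 534, 493, 478, 550.1 and 474 CPM with vehicle and 284, 274, 277, 266 and 259 CPM with TTX. It fell 1.86-fold without overlap (-0.89 ± 0.0422, adjusted p = 1.28e-10). Syt11, the most abundant synaptotagmin by FPKM and one that glia also express, measured 507, 499, 509, 513 and 520.4 CPM with vehicle and 662, 660.3, 645, 645 and 651 CPM with TTX. It rose 1.28-fold (0.36 ± 0.0208, adjusted p = 1.32e-09), and the summed astrocyte markers were also higher in the TTX libraries, at 17168–19180 against 11691–13568 CPM. Their part in this result was not tested. Syt12 measured 40.1, 41.4, 41.1, 38.8 and 41.6 CPM with vehicle and 23.01, 24.1, 23.2, 24.0 and 23.1 CPM with TTX, 1.73-fold lower without overlap (-0.79 ± 0.0345, adjusted p = 5.45e-11). Syt15 was close to the detection floor, at 0.881, 1.01, 1.19, 1.27 and 1.204 CPM with vehicle and 0.776, 0.216, 0.825, 0.639 and 0.493 CPM with TTX. It was called lower (-0.90 ± 0.275, adjusted p = 0.00916), and TTX replicate 2, with 14 counts, was lowest. Syt17 rose by 0.44 on the log2 scale (adjusted p = 8.30e-05), while Syt13 did not pass (0.03, adjusted p = 0.398).

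Calcium sensors of release were measured as follows. Syt1, the fast sensor of most forebrain synapses, was at 385 ± 15.8 CPM with vehicle and 396 ± 16.05 CPM with TTX and did not pass (log2 fold change 0.04, 95% confidence interval -0.03 to 0.11, adjusted p = 0.297). Syt7, a high-affinity sensor for asynchronous release and facilitation, rose 1.35-fold without overlap, from 88.0 ± 2.13 to 119 ± 3.54 CPM (adjusted p = 2.75e-09). Doc2b, a high-affinity sensor linked to spontaneous release, measured 5.21, 4.57, 4.94, 5.52 and 4.81 CPM with vehicle and 13.2, 15.2, 12.9, 15.04 and 14.9 CPM with TTX, 2.85-fold higher (1.51 ± 0.0726, adjusted p = 1.60e-10), with all TTX libraries above all vehicle libraries. Doc2a (0.15, adjusted p = 0.0258) and Syt2 (0.28, adjusted p = 0.0256) were called higher on small changes. The Doc2a call was lost without vehicle replicate 1 or 5 or TTX replicate 2 or 5 (adjusted p up to 0.0758), and the Syt2 call without vehicle replicate 3 or 5 or TTX replicate 1, 2 or 5 (up to 0.0738). Syt3 rose by 0.12 (adjusted p = 0.00213) and Syt5 was lower (-0.29, adjusted p = 7.47e-07). Syt9 did not pass (-0.07, adjusted p = 0.531).

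**Figure D4:**
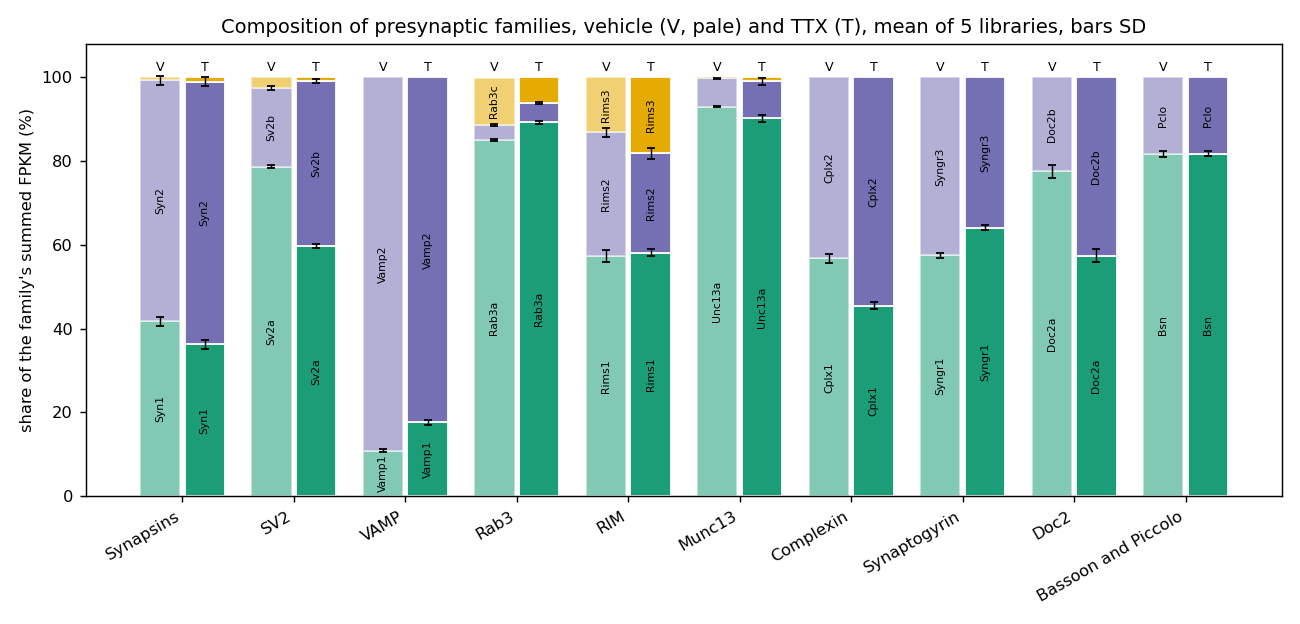
Share of each member in the summed FPKM of the members of its family, in percent, mean of 5 libraries with SD. Vehicle bars (V) are pale and TTX bars are marked T. Sv2b takes 18.8% of SV2 transcripts with vehicle and 39.4% with TTX, and bassoon and piccolo keep shares of 81.7% and 81.8% for Bsn.

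Levels per transcript length show how these changes altered each family, with only the members counted in each. Sv2a made up 78.7% ± 0.368 (SD, n = 5) of SV2 FPKM with vehicle and 59.7% ± 0.499 with TTX, and Sv2b 18.8% ± 0.562 and 39.4% ± 0.513, while Sv2c went from 2.53% ± 0.210 to 0.853% ± 0.0802. The SV2 sum was 215 ± 4.66 and 225 ± 2.56 FPKM, with overlapping ranges. Vamp1 went from 10.8% ± 0.353 to 17.7% ± 0.578 of synaptobrevin FPKM, at sums of 694 ± 18.8 and 707 ± 8.11 that overlapped too. Complexins changed order, Cplx2 going from 43.2% ± 1.14 to 54.5% ± 0.753. Doc2b went from 22.4% ± 1.62 to 42.6% ± 1.51 of Doc2 FPKM.

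Some families changed in sum. The RIM members Rims1, Rims2 and Rims3 summed to 38.5 ± 1.14 FPKM with vehicle and 25.7 ± 1.05 with TTX. Rims4, a RIM gene outside the members, is not in that sum. It stood at 33.2 FPKM with vehicle and 29.7 with TTX. In counts Rims4 was called 1.13-fold lower, with overlapping groups. Munc13 genes summed to 57.2 ± 0.368 FPKM with vehicle and 36.6 ± 2.27 with TTX. The RIM sum includes Rims2, which fell more in FPKM (log2 ratio -0.90) than in counts (-0.61). Bassoon and piccolo together went from 31.3 ± 2.17 to 23.1 ± 2.30 FPKM. In all 3 the ranges of the groups were apart. Synapsins summed to 326 ± 7.70 and 445 ± 11.5 FPKM and complexins to 404 ± 13.9 and 512 ± 16.1, again without overlap. The 15 synaptotagmins together were at 898 ± 14.1 and 937 ± 13.3 FPKM, with ranges also apart. Synaptogyrins summed to 284 ± 6.67 and 245 ± 4.33 FPKM and Doc2 genes to 12.3 ± 0.546 and 18.6 ± 1.08, likewise without overlap. Rab3 genes summed to 486 ± 17.8 and 497 ± 8.03 FPKM, with overlapping ranges. These sums were not tested.

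**Figure D5:**
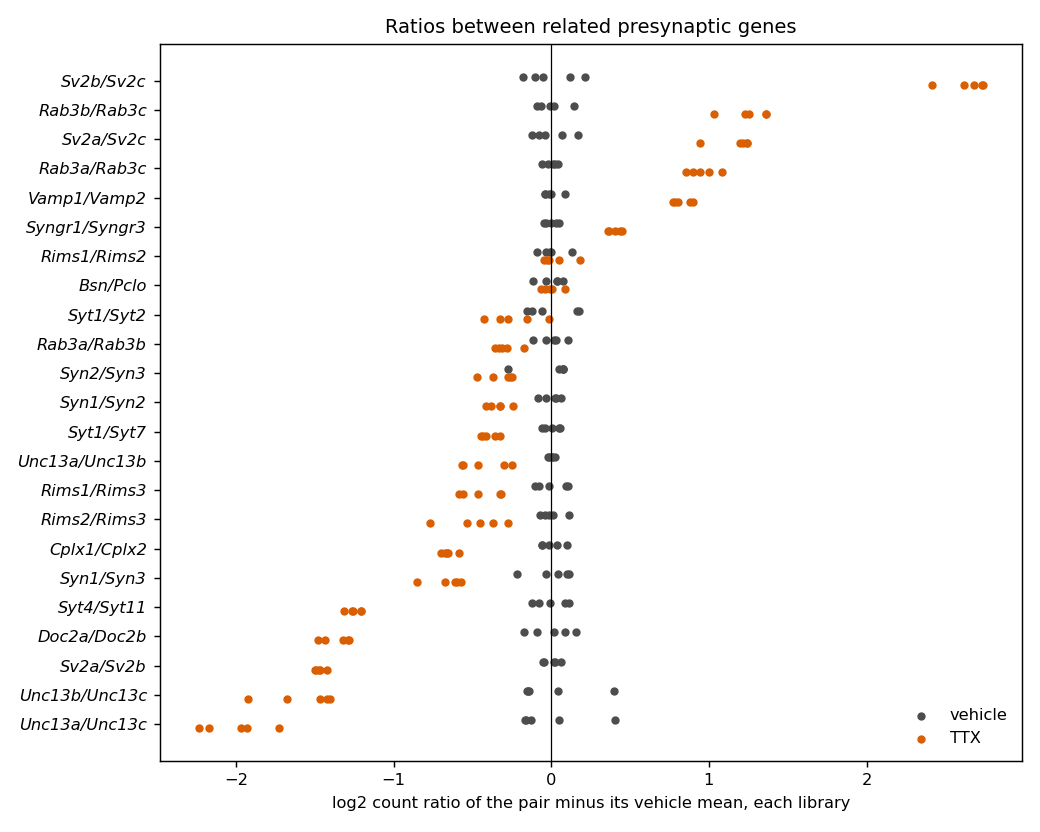
Log2 ratio of the counts of related genes in each library, centred on the vehicle mean of the pair, for 23 pairs. The TTX points of 19 pairs lie wholly to one side of the vehicle points, and those of Bsn/Pclo and Rims1/Rims2 lie among them.

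Whether relatives differed in response was tested by the log2 ratio of their counts within each library, which does not depend on scaling. Of 23 pairs 20 passed an exact two-sided permutation test with Benjamini-Hochberg adjustment over the pairs. The pairs were chosen with earlier results known, 70.5% of all genes were called, and the share of gene pairs in general that would pass was not computed, so the count says nothing particular to these families. In 19 of them p was 0.00794, the smallest that 5 against 5 libraries can give, and the adjusted p was 0.00961. Sv2b over Sv2c shifted most, from a log2 ratio of 3.88 ± 0.163 to 6.52 ± 0.134 (SD, n = 5), a 6.22-fold rise in all 5 TTX libraries (exact permutation test, adjusted p = 0.00961). Unc13a over Unc13c fell 4.02-fold, Sv2a over Sv2b 2.77-fold, Doc2a over Doc2b 2.57-fold, and Syt4 over Syt11 2.38-fold. Rab3b over Rab3c rose 2.38-fold, Vamp1 over Vamp2 1.78-fold and Syngr1 over Syngr3 1.32-fold, whereas Cplx1 over Cplx2 fell 1.57-fold and Syt1 over Syt7 1.31-fold. Among the smaller shifts, Syn2 over Syn3 passed at adjusted p = 0.0365 (difference -0.32, exact permutation test) and overlapped, with vehicle replicate 3 low. The ratio Syn2/Syn3 lost its call in 9 of the 10 tests that left out one library, all but that without vehicle replicate 3 (adjusted p = 0.0548 to 0.0730, exact permutation test).

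Bsn over Pclo did not differ beyond the spread, at 2.20 ± 0.0750 and 2.20 ± 0.0593 (difference -0.00446 ± 0.0428 SE, exact permutation test, adjusted p = 0.937). Rims1 over Rims2 did not pass either in counts (difference 0.03 ± 0.0561 SE, exact permutation test, adjusted p = 0.614). In FPKM, where Rims2 fell more, the ratio Rims1/Rims2 rose by 0.33 (exact permutation test, adjusted p = 0.00913). Syt1 over Syt2 missed the threshold (-0.24, exact permutation test, adjusted p = 0.0695), and the ratio Syt1/Syt2 passed without TTX replicate 3 (adjusted p = 0.0365).

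Other genes of vesicle priming, docking and recycling moved in both directions as well. Of 66 measured genes from a list of 70, 28 rose, 24 fell and 14 did not pass, against 70.5% called among all genes, with a median log2 fold change of 0.05. Otof, the calcium sensor otoferlin of hair cell synapses, rose from 3.20, 4.01, 3.71, 3.59 and 3.49 CPM in the vehicle libraries to 20.6, 18.4, 14.1, 16.5 and 21.1 CPM, 5.03-fold (adjusted p = 1.12e-10). Sytl4, a granule protein that binds Rab27, rose on few reads, 6 to 22 counts with vehicle and 21 to 42 with TTX, and its groups overlapped. Stxbp6, or amisyn, a SNARE-binding protein, rose 1.77-fold without overlap. Lin7a, a small scaffold protein, was 3.69-fold lower, Rab27b, a vesicle GTPase, 3.13-fold lower and Slc17a6, a vesicular glutamate transporter, 1.91-fold lower, each without overlap. Slc17a6 went from 50.5 to 26.4 CPM on average. Slc17a7, another vesicular glutamate transporter, was called 1.21-fold higher without overlap, from 1510 to 1820 CPM.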

How the data were processed

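The authors deposited whole-number counts per gene and library, used as deposited, and FPKM values in the same table per the file headers, used for levels between genes. The deposited log2 fold changes and p-values are the authors' own. Per the submitters' processing notes, the tools were HISAT2 2.1.0, StringTie and DESeq2, with build rn6. The counter and its strand setting were not given in the sources used here, and reads of overlapping genes may be mixed. Per the labels' protocols, total RNA with an integrity number above 9.0 was used. The table had 14608 lines, and 254 identical repeats were removed, which left 14354 genes. A second deposited list, of raised secreted factors, was not used.

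Counts were tested with edgeR 4.0.16 in R 4.3.3 (TMM, filterByExpr with minimum count 10 and minimum total 15, glmQLFit and glmQLFTest, two-sided, Benjamini-Hochberg), and glmTreat for 1.5-fold. The filter left 13088 genes. The SE of a log2 fold change is its size divided by the root of the F statistic. Paralog ratios used counts with 0.5 added. Intervals and p-values cover the spread between libraries, whose totals ranged from 52254261 to 84921962 counts. Chi-square per gene between replicate libraries was 9.94 to 22.97, above sampling noise, and none were merged.

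Members, lists and pairs were chosen with earlier results of these data known, and the grouping by role, the sequences and the motifs after values were seen. Values per library are given for the 15 called members with a fold change of at least 1.5 in size. The 2 called members nearest below that and the most abundant member of each role by FPKM are added. Of the 15, Cplx2, Rims2 and Syt15 did not pass the test against a 1.5-fold change. Of other presynaptic genes the 3 largest called rises and falls are named. Napa, Napg, Rims4 and Slc17a7 are added as relatives of named genes. On simulated TTX against vehicle data with 13088 genes, the test recovered 52% of 1.2-fold, 84% of 1.5-fold, 92% of 2-fold and 100% of 4-fold changes. In that simulation 200 genes were changed and 7 unchanged genes were called, whereas 70.5% of genes were called in the real data. The recovery rates therefore need not hold for the real comparison. Alternatives were other scalings and filters, DESeq2 1.42.0, limma-voom (limma 3.58.1), omitting single libraries and a fit with a replicate block. Scaling to pan-neuronal markers and removing a length trend were added after seeing the data.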

Additional observations from a re-analysis of the deposited data

Results flagged for a closer look

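Of 92 groups of 5 libraries (46 tested members in each group), 8 held a library whose distance from the nearest other was over 0.71 of the group's range, and about 1 in 20 does so by chance. Vehicle replicate 3 was low for Syn2 (344 against 370.2 to 375 CPM) and high for Syn3 (6.03 against 5.07 to 5.23 CPM). TTX replicate 3 was high for Sv2c (5.83 against 4.85 to 5.10 CPM) and low for Syt3 (72.9 against 77.1 to 78.9 CPM). In vehicle replicate 5 Rims2 was at 39.8 CPM against 42.9 to 43.9, and in vehicle replicate 2 Syt13 was at 89.3 CPM against 95.3 to 96.9. In TTX replicate 5 Syngr1 was at 152 CPM against 143 to 145, and in TTX replicate 4 Syt17 was at 41.1 CPM against 43.5 to 44.3.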

How the results depend on the processing

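Counts of called members, other presynaptic genes and all genes stayed within 1.5 times their reported values under 20 alternatives, and counts of members past 1.5-fold under 18 (DESeq2 and limma-voom were not run for these). Leaving out one library gave 17 to 20 members higher and 20 to 21 lower, 6 to 7 and 6 past 1.5-fold, 25 to 29 other presynaptic genes higher and 23 to 25 lower, 4405 to 4548 of all genes higher and 4462 to 4555 lower, and 19 to 20 paralog pairs past the threshold. Of 46 members 40 kept direction and call in every alternative that tested them. The exceptions were Snap25, Syngr1, Doc2a and Syt2, whose calls changed, and Cplx1 and Syt9, uncalled genes whose sign changed. Syt15, among the 40, did not reach the filter of 1 CPM in 5 libraries and was not tested there. The log2 fold change of Cplx1 was -0.0203 with pan-neuronal scaling and -0.0109 to 0.0203 with a library left out, and that of Syt9 -0.123 to 0.000959. The difference in ratio Bsn/Pclo was 0.00613 in FPKM and -0.0331 to 0.0140 with a library left out, and in ratio Rims1/Rims2 -0.00978 to 0.0625.

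Replicate numbers did not pair the libraries (correlations of same-numbered deviations -0.0581 to 0.0110, and 0 of 10 libraries closest to their own number). With a replicate block 19 members were higher and 21 lower. For paralog ratios the block left 0 of 23 pairs past the threshold, since a sign-flip test over 5 pairs cannot give a p below 0.0625. Depth limits Syt15, Unc13c, Sytl4 and Syt8.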

Other observations

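Large changes were found mostly among the less abundant presynaptic genes. Of 16 members above 100 FPKM with vehicle, among them Syp, Vamp2, Rab3a, Snap25 and Syt1, 1 (Syt4) passed the test against 1.5-fold. Of 17 members between 10 and 100 FPKM 5 passed, and of 13 tested members below 10 FPKM 6 passed, Syt6, Syt10, Doc2b, Sv2c, Syn3 and Unc13c. Over all genes the corresponding shares were 7.44% of 928, 11.1% of 5938 and 17.8% of 5991, so a rise of that share at low levels was present in the whole table as well.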
